A study of Mus musculus with 9 samples.

Results

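Interferon-stimulated antiviral effectors are genes that interferon switches on and whose products act against viruses inside the cell, among them ubiquitin-like and ADP-ribosylation genes. The 39 genes examined were listed by name from known functions, with earlier results of these data known. Each gene was represented by the probe set annotated to it alone with the highest mean over the 9 arrays. Of these, 35 were measured among the 17097 genes that the arrays could name, and *Isg15*, *Oas1a*, *Bst2* and *Ifi44* were left out because they had no probe set annotated to them alone. The samples were brain tissue around the injection site, from the injected hemisphere of adult male C57Bl/6J mice aged 10 to 12 weeks. The mice received PBS or lipopolysaccharide (LPS), a bacterial cell wall component that activates innate immunity, by stereotaxic injection into the striatum, and were perfused with saline before dissection. There were 3 groups of 3 arrays, PBS (tissue taken at 4 d), LPS 1 d and LPS 4 d, and RNA of 3 mice was pooled on every array. A PBS group at 1 d was not analysed here, and the effect of the injection itself at that time cannot be told apart from that of LPS. Values are log2 expression values of one probe set per gene. The p values of the group comparisons set a difference against the spread between pools, estimated over the 3 groups together. The spread between single mice is hidden within the pools.

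Type I interferons bind the receptor made of IFNAR1 and IFNAR2, whose kinases JAK1 and TYK2 activate STAT proteins. With IRF9, STAT proteins bind a DNA sequence named the interferon-stimulated response element (ISRE) in the promoters of antiviral genes, whereas interferon gamma acts at the gamma-activated sequence (GAS). In the brain, microglia, astrocytes, endothelium and neurons can all respond to interferon, and LPS can induce interferon beta through TLR4.

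The promoters of the members were examined for these elements first, because they are the sequences through which interferon is known to act. The window ran from 250 bases before to 50 bases after each annotated start in the RefSeq promoter set (GRCm38.p6), and 24 of the 35 measured members had an entry while 11 did not. ISRE was searched as GAAANNGAAA, GAS as TTCNNNGAA and the NF-kB element by its consensus, each on both strands, and matches of different elements were allowed to overlap. An ISRE match was present in 9 of the 24 members (37.5%), compared to 1079 of the 27025 genes with an entry (3.99%). GAS matches were present in 7 of the 24 members (29.2%) and in 9.55% of all genes, and NF-kB matches in 5 members (20.8%) and in 9.55% of all genes. The windows of *Ifit1*, *Ifit3* and *Rsad2* are shown because these were among the members with the largest changes after LPS, and that of *Oas3* because it holds a match while the gene passed no test. Each runs from position -160 to -1, counted from the annotated start as 0, 5′ to 3′ on the strand of the gene, with ISRE matches on either strand in capitals. *Ifit1* lies at chr19:34640729-34640888 (plus strand), *Ifit3* at chr19:34583369-34583528 (plus strand), *Rsad2* at chr12:26456453-26456612 (minus strand) and *Oas3* at chr5:120777660-120777819 (minus strand). For *Ifitm3*, whose matches lie after the start, the first 30 transcribed bases are shown (chr7:141010715-141010744, minus strand).
Ifit1: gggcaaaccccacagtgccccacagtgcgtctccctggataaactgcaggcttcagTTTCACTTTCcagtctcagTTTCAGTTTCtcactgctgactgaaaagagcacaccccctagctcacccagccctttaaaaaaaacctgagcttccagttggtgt
Ifit3: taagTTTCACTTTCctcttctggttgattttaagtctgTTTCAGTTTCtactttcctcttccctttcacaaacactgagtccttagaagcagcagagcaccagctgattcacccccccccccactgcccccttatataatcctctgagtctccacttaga
Rsad2: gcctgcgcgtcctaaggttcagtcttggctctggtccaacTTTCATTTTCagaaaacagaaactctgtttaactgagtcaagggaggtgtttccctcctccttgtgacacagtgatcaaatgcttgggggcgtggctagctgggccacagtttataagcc
Oas3: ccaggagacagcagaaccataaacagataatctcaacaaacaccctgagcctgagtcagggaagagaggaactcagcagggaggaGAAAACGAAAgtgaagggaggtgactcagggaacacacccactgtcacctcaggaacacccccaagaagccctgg
Ifitm3: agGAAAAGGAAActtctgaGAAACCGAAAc
*Ifit1* and *Ifit3* each held 2 matches, on the opposite strand to the gene, at positions -104 to -95 and -85 to -76 in *Ifit1* and at positions -156 to -147 and -122 to -113 in *Ifit3*. *Rsad2* held 1 match, at positions -120 to -111, and *Oas3* held 1 at positions -75 to -66. The second ISRE match of *Ifitm3* overlapped a GAS match. Among members with an entry, an ISRE match was present in 5 of the 15 that passed as lower at 4 d against 1 d, and in 4 of the other 9. These matches are descriptions of the letters in the windows, and no binding was measured.

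**Figure D1:**
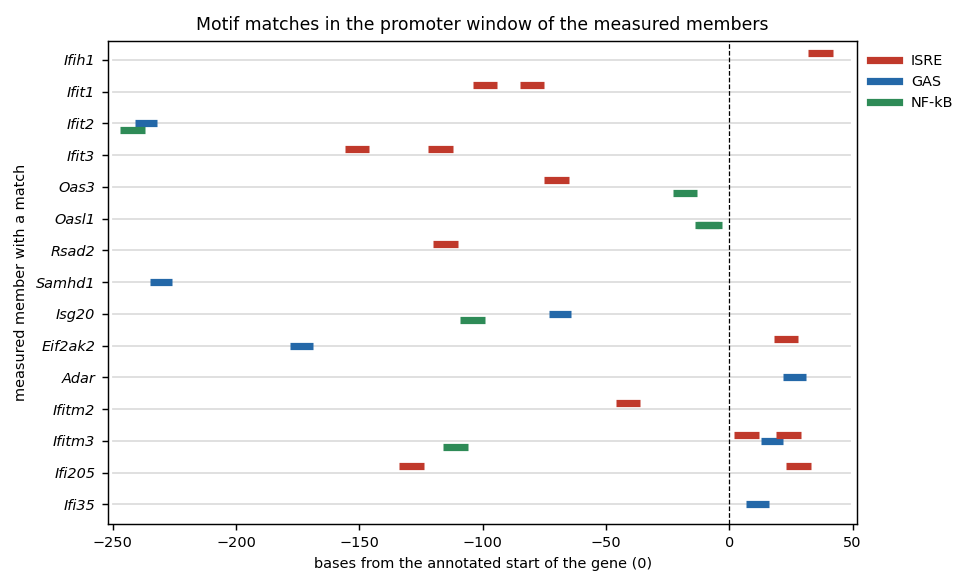
Positions of ISRE, GAS and NF-kB matches (coloured bars) in the promoter windows of the measured members that hold one, with bases from the annotated start on the x axis and 1 row per gene. The ISRE matches of *Ifit1*, *Ifit3*, *Rsad2*, *Oas3* and *Ifitm2* lie before the start, those of *Ifih1*, *Eif2ak2* and *Ifitm3* after it, and *Ifi205* has 1 on each side.

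At 1 d after LPS, nearly all measured antiviral effectors were higher than after PBS. Of the 35 members, 31 were higher (adjusted p under 0.05 from limma and a fold change of at least 1.5) and 0 were lower, whereas 3.86% of all genes were higher and 0.532% were lower by the same test. The members called made up 88.6% of those measured. Their median log2 change was 2.14, beside -0.03 over all genes, and the changes ran from -0.00 for *Adar* to 4.24 for *Oasl2*. The 3 LPS arrays lay above the 3 PBS arrays for 32 members, as they did for 11.5% of all genes. In 11 members the PBS mean was at background, which is a mean log2 value no higher than 3.49, the largest mean among the 23 nonspecific control probe sets. For 10 of these the rise is a bound, from at least 1.21-fold (*Eif2ak2*) to at least 11-fold (*Usp18*), and *Oas3* was at background at 1 d too. With these bounds in place of the fitted changes, the median over 34 members was 1.72.

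At 4 d after LPS, 18 of the 35 members were higher than after PBS (51.4%) and 0 were lower, compared to 4.21% of all genes higher and 0.205% lower. The median log2 change of the members was 0.77, beside -0.02 over all genes. All 3 LPS arrays lay above the PBS arrays for 23 members and for 12.0% of all genes. Both the PBS and the LPS 4 d mean were at background in 8 members, namely *Zbp1*, *Oas3*, *Oasl1*, *Mx1*, *Isg20*, *Eif2ak2*, *Herc6* and *Ifi204*, and the median over the other 27, with 2 bounds in place, was 1.03. In the test over the 3 groups together, 28 of the 35 members differed, and 7.67% of all genes. By group mean, 33 members were highest at 1 d, *Uba7* was highest at 4 d and *Adar* was highest after PBS. However, *Uba7* did not pass between 4 d and 1 d, and *Adar* passed in no comparison. *Oas3*, counted among the 33, was at background in every group. Because the tissue is a mixture of cells, fewer cells of a type and less RNA per cell cannot be told apart in these values.

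**Figure D2:**
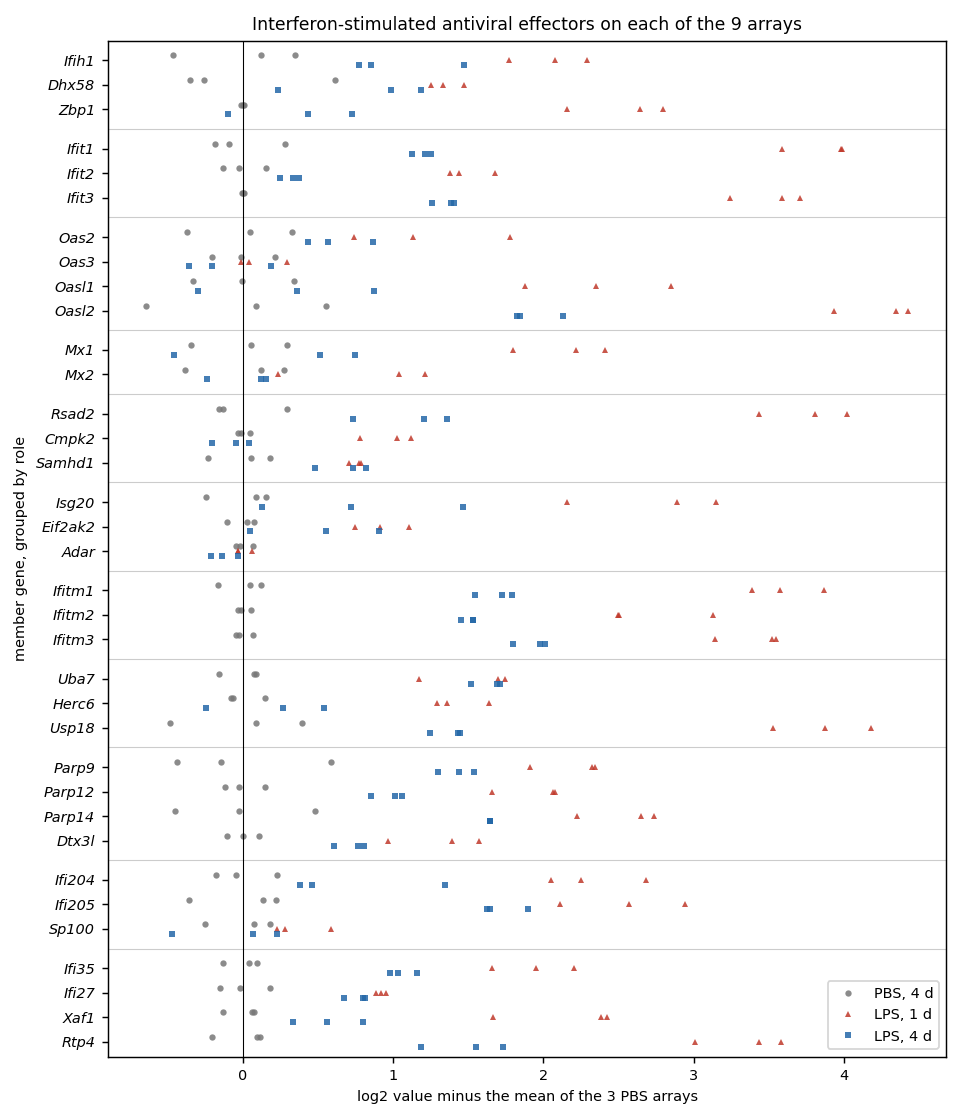
Difference of each array's log2 value from the mean of the 3 PBS arrays (x axis) for the 35 measured members (rows, grouped by role), with 1 symbol per array (grey circles PBS at 4 d, red triangles LPS at 1 d, blue squares LPS at 4 d). The 3 red triangles lie to the right of all grey circles in 32 members, and the blue squares do so in 23.

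Cytoplasmic nucleic acid sensors were higher at 1 d in 3 of 3 cases and in 0 of 3 at 4 d, where 2 had an unadjusted limma p under 0.05. *Ifih1* encodes MDA5, which detects long double-stranded RNA, and its log2 change was 2.05 at 1 d (SE 0.25, adjusted p = 0.00143) and 1.03 at 4 d (SE 0.25, adjusted p = 0.0589). The 4 d change of *Ifih1* passed with limma's trend and robust options, with low probe sets left out and with the replicate block, at an adjusted p under 0.05 in each. *Dhx58* encodes the related regulator LGP2. Its PBS mean was at background, and it was at least 2.2-fold higher at 1 d (log2 change 1.35, SE 0.29, adjusted p = 0.0376). That call was lost when any of the 3 LPS 1 d arrays, LPS 4 d replicate 2 or PBS replicate 1 or 2 was left out (adjusted p from 0.0561 to 0.131), and the other 2 probe sets of *Dhx58* were at background. *Zbp1*, which binds nucleic acids in the Z form and can start cell death, had log2 values of 2.39, 2.40 and 2.38 after PBS, of 4.54, 5.18 and 5.03 at 1 d and of 2.82, 2.29 and 3.12 at 4 d. The 1 d arrays stood clear of all others, whereas the 4 d arrays overlapped the PBS arrays and both of those groups were at background. *Zbp1* was therefore at least 2.69-fold higher at 1 d than after PBS (log2 change 2.53, SE 0.22, adjusted p = 0.000152) and at least 2.69-fold lower at 4 d than at 1 d (log2 change -2.18, SE 0.22, adjusted p = 0.00105). A second probe set of *Zbp1* also passed at 1 d (1.15, SE 0.16, adjusted p = 0.00375), but not between 1 d and 4 d (-0.72, SE 0.16, adjusted p = 0.0624).

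The IFIT family includes IFIT1, which binds RNA that lacks host cap modifications and blocks its translation. All 3 IFIT genes measured were higher at 1 d, and their level at 4 d was below that at 1 d. *Ifit1* had log2 values of 4.58, 4.20 and 4.11 after PBS, of 7.88, 8.28 and 8.28 at 1 d and of 5.51, 5.42 and 5.54 at 4 d. *Ifit3* was at 5.62, 5.62 and 5.63 after PBS, at 8.87, 9.22 and 9.33 at 1 d and at 7.03, 6.88 and 7.01 at 4 d. For both genes the 3 groups did not overlap, with 1 d highest, 4 d between and PBS lowest. The log2 change of *Ifit1* was 3.85 at 1 d (SE 0.15, adjusted p = 3.79e-06) and 1.20 at 4 d (SE 0.15, adjusted p = 0.00184). *Ifit3* changed by 3.51 (SE 0.12, adjusted p = 3.47e-06) and 1.35 (SE 0.12, adjusted p = 0.000224). *Ifit2* had a smaller rise, with values of 5.69, 5.97 and 5.80 after PBS, of 7.20, 7.50 and 7.26 at 1 d and of 6.15, 6.07 and 6.19 at 4 d. Its 4 d arrays also lay above all PBS arrays, but the change of 0.32 did not pass (SE 0.11, adjusted p = 0.178), while that of 1.5 at 1 d did (SE 0.11, adjusted p = 5.37e-05). *Ifit3* has a near-identical copy, *Ifit3b*, whose transcripts the same probes may measure.

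The OAS family comprises enzymes that make a nucleotide signal on double-stranded RNA, which activates RNase L, and the OAS-like proteins OASL1 and OASL2. Of the 4 measured, 3 were higher at 1 d and 1 at 4 d. *Oasl2* showed the largest fitted change at 1 d, with log2 values of 2.93, 3.67 and 4.13 after PBS, of 7.51, 8.0 and 7.92 at 1 d and of 5.42, 5.40 and 5.71 at 4 d. Its groups did not overlap, and its log2 change was 4.24 at 1 d (SE 0.27, adjusted p = 2.96e-05) and 1.93 at 4 d (SE 0.27, adjusted p = 0.00398). *Oasl1*, which represses translation of *Irf7* mRNA, was at 2.73, 3.08 and 2.40 after PBS, at 4.62, 5.58 and 5.09 at 1 d and at 3.61, 2.44 and 3.10 at 4 d. The 1 d arrays of *Oasl1* were separate from the rest, and its rise was at least 3.04-fold (log2 change 2.36, SE 0.33, adjusted p = 0.00323). At 4 d its mean was at background, as after PBS. *Oas2* had values of 3.24, 3.94 and 3.66 after PBS, of 4.75, 5.39 and 4.35 at 1 d and of 4.04, 4.48 and 4.18 at 4 d. All LPS arrays of *Oas2* lay above the PBS arrays, and the 1 d and 4 d arrays overlapped. Its log2 change of 1.22 at 1 d passed (SE 0.27, adjusted p = 0.0391), but it did so without LPS 1 d replicate 3 and not when any of the other 8 arrays was left out (adjusted p from 0.0525 to 0.13). *Oas3* was at 2.44, 2.86 and 2.64 after PBS, at 2.94, 2.68 and 2.63 at 1 d and at 2.29, 2.83 and 2.44 at 4 d. Its groups overlapped and were all at background, and no fold is given for it.

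Of the genes of the Mx family of dynamin-like GTPases, *Mx1* was higher at 1 d and *Mx2* did not pass. These values are of RNA, and whether the mice made working Mx protein was not measured. *Mx1* was at least 3.18-fold higher at 1 d (log2 change 2.14, SE 0.31, adjusted p = 0.00399), and its 4 d mean was at background. *Mx2* had log2 values of 4.01, 3.86 and 3.35 after PBS, of 3.97, 4.95 and 4.78 at 1 d and of 3.50, 3.89 and 3.86 at 4 d. At 1 d, replicates 2 and 3 lay above all PBS arrays and replicate 1 lay among them. The log2 change of *Mx2* at 1 d was 0.83 (95% interval 0.23 to 1.42, adjusted p = 0.153), and without LPS 1 d replicate 1 it was 1.13 (adjusted p = 0.0245). All 4 d arrays of *Mx2* lay below the 1 d arrays, but that change of -0.82 passed only without the same array (-1.12, adjusted p = 0.0383).

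Enzymes of nucleotide metabolism all rose at 1 d, by very different amounts. *Rsad2* encodes viperin, which converts CTP into a chain terminator of viral RNA synthesis. Its log2 values were 5.10, 4.67 and 4.64 after PBS, 8.24, 8.61 and 8.82 at 1 d and 6.16, 5.54 and 6.01 at 4 d, without overlap between the groups. The log2 change of *Rsad2* was 3.75 at 1 d (SE 0.205, adjusted p = 1.5e-05) and 1.10 at 4 d (SE 0.205, adjusted p = 0.0184). The call at 4 d was lost without LPS 4 d replicate 1 or 3 or PBS replicate 2 or 3 (adjusted p from 0.0706 to 0.0791), and the other 2 probe sets of *Rsad2* gave 0.19 and 0.80 at 4 d, neither past the test. *Cmpk2*, a mitochondrial nucleotide kinase, had a change of 0.97 at 1 d (SE 0.11, adjusted p = 0.00076) and of -0.07 at 4 d (SE 0.11, adjusted p = 0.794). *Samhd1*, which breaks down deoxynucleotides, had values of 5.40, 5.12 and 5.54 after PBS, of 6.14, 6.06 and 6.12 at 1 d and of 6.09, 5.83 and 6.17 at 4 d. Both LPS groups of *Samhd1* lay above PBS and overlapped each other, and it was higher at both times, by 0.75 (SE 0.125, adjusted p = 0.00969) and 0.68 (SE 0.125, adjusted p = 0.0176). The 4 d call of *Samhd1* was lost without LPS 4 d replicate 1 or 3 or PBS replicate 1 or 2 (adjusted p from 0.0521 to 0.0711), while its second probe set gave larger changes that passed, 1.25 and 1.04.

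Genes acting on RNA or its translation differed among themselves. *Isg20*, an RNA exonuclease, was at least 3.4-fold higher at 1 d (log2 change 2.73, SE 0.34, adjusted p = 0.00172) and its 4 d values of 3.24, 2.65 and 3.99 spread widely around background. *Eif2ak2* encodes PKR, which halts translation on double-stranded RNA, and its rise at 1 d was at least 1.21-fold (log2 change 0.92, SE 0.19, adjusted p = 0.0336). It lost that call when any array other than LPS 4 d replicate 2 or 3 was left out (adjusted p from 0.056 to 0.117), and at 4 d its 0.50 passed only when LPS 4 d replicate 2 was left out (0.73, adjusted p = 0.0315). *Adar*, which edits adenosine to inosine in double-stranded RNA, had log2 values of 8.21, 8.24 and 8.32 after PBS, of 8.32, 8.22 and 8.22 at 1 d and of 8.04, 8.22 and 8.12 at 4 d. The groups of *Adar* overlapped, its log2 change at 1 d was -0.00 (95% interval -0.18 to 0.18) and that at 4 d was -0.13 (95% interval -0.31 to 0.05). Its other 2 probe sets did not pass either, at 0.40 and 0.10 at 1 d.

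IFITM proteins sit in endosomal and plasma membranes and hinder fusion of incoming viruses. All 3 rose at both times and were lower at 4 d, when set against 1 d. *Ifitm3* had log2 values of 7.07, 7.05 and 7.16 after PBS, of 10.24, 10.64 and 10.62 at 1 d and of 9.10, 8.90 and 9.07 at 4 d. *Ifitm1* was at 5.51, 5.30 and 5.59 after PBS, at 8.85, 9.33 and 9.04 at 1 d and at 7.19, 7.26 and 7.01 at 4 d. *Ifitm2* was at 5.47, 5.40 and 5.38 after PBS, at 7.92, 8.55 and 7.92 at 1 d and at 6.95, 6.95 and 6.87 at 4 d. In each of the 3 genes the 3 groups were fully separate. The log2 change at 1 d was 3.61 for *Ifitm1* (SE 0.14, adjusted p = 3.79e-06), 2.71 for *Ifitm2* (SE 0.16, adjusted p = 1.72e-05) and 3.40 for *Ifitm3* (SE 0.12, adjusted p = 3.47e-06). At 4 d it was 1.69 for *Ifitm1* (SE 0.14, adjusted p = 0.000144), 1.5 for *Ifitm2* (SE 0.16, adjusted p = 0.000615) and 1.93 for *Ifitm3* (SE 0.12, adjusted p = 3.02e-05).

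Conjugation of ISG15, a ubiquitin-like protein, needs the activating enzyme UBA7 and the ligase HERC6, while USP18 removes ISG15 and also dampens signalling at the interferon receptor. All 3 were higher at 1 d, and *Uba7* and *Usp18* were higher at 4 d. *Usp18* had log2 values of 2.60, 3.48 and 3.18 after PBS, of 6.61, 7.27 and 6.96 at 1 d and of 4.33, 4.53 and 4.52 at 4 d. Its groups were separate, and it was at least 11-fold higher at 1 d (log2 change 3.86, SE 0.23, adjusted p = 1.88e-05) and at least 1.96-fold higher at 4 d (log2 change 1.37, SE 0.23, adjusted p = 0.00966). *Uba7* followed another course, at 3.08, 3.33 and 3.32 after PBS, at 4.41, 4.99 and 4.94 at 1 d and at 4.96, 4.76 and 4.93 at 4 d. Both LPS groups of *Uba7* lay above PBS and overlapped each other, with rises of at least 2.45-fold at 1 d (log2 change 1.54, SE 0.15, adjusted p = 0.000431) and at least 2.62-fold at 4 d (log2 change 1.64, SE 0.15, adjusted p = 0.000368). The other 2 probe sets of *Uba7* did not pass, with changes of 1.00 at 1 d and 1.00 at 4 d for one and of 0.29 and -0.06 for the other. *Herc6* was at least 1.91-fold higher at 1 d (log2 change 1.43, SE 0.19, adjusted p = 0.00239), and at background at 4 d.

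ADP-ribosylation genes were higher at 1 d and at 4 d in 4 of 4 cases. PARP9 works in a complex with the ubiquitin ligase DTX3L, and PARP12 and PARP14 attach ADP-ribose to proteins. *Parp14* had log2 values of 4.21, 3.28 and 3.71 after PBS, of 5.96, 6.47 and 6.39 at 1 d and of 5.38 on all 3 arrays at 4 d. The deposited 4 d values of *Parp14* were identical, which is unusual for separate pools, so its SE and p values may be too small. *Parp9* was at 4.34, 5.08 and 4.05 after PBS, at 6.40, 6.81 and 6.83 at 1 d and at 5.93, 5.79 and 6.03 at 4 d. *Parp12* was at 5.56, 5.83 and 5.66 after PBS, at 7.34, 7.76 and 7.75 at 1 d and at 6.74, 6.53 and 6.69 at 4 d. The groups were separate in all 3, with the 4 d arrays between the others. The change at 1 d was 2.54 for *Parp14* (SE 0.22, adjusted p = 0.000161), 2.19 for *Parp9* (SE 0.24, adjusted p = 0.000726) and 1.93 for *Parp12* (SE 0.13, adjusted p = 4.03e-05). At 4 d it was 1.65 for *Parp14* (SE 0.22, adjusted p = 0.00282), 1.43 for *Parp9* (SE 0.24, adjusted p = 0.0104) and 0.97 for *Parp12* (SE 0.13, adjusted p = 0.00312). *Dtx3l* had values of 4.78, 4.88 and 4.67 after PBS, of 5.74, 6.17 and 6.35 at 1 d and of 5.59, 5.38 and 5.55 at 4 d, again with the 4 d arrays between the others. It changed by 1.31 at 1 d (SE 0.15, adjusted p = 0.000935) and by 0.73 at 4 d (SE 0.15, adjusted p = 0.0285). The 4 d call of *Dtx3l* was lost without LPS 4 d replicate 1 or 3 or any PBS array (adjusted p from 0.0628 to 0.107).

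Of the nuclear proteins, the HIN-200 members *Ifi204* and *Ifi205*, which bind DNA, were higher at 1 d, and *Ifi205* was also higher at 4 d. *Ifi205* had log2 values of 3.87, 3.96 and 3.38 after PBS, of 5.85, 6.68 and 6.31 at 1 d and of 5.36, 5.38 and 5.64 at 4 d. Its groups were separate, with changes of 2.54 at 1 d (SE 0.22, adjusted p = 0.000162) and 1.72 at 4 d (SE 0.22, adjusted p = 0.00218). The probe set is of a type that can cross-hybridise with other genes of the family, and the second probe set of *Ifi205* passed at both times with changes of 1.71 and 1.35. *Ifi204* was at least 2.12-fold higher at 1 d (log2 change 2.33, SE 0.26, adjusted p = 0.000904). *Sp100*, a nuclear body protein, had values of 4.10, 4.00 and 3.67 after PBS, of 4.21, 4.51 and 4.15 at 1 d and of 4.15, 3.45 and 3.99 at 4 d. The 1 d arrays of *Sp100* lay just above the PBS arrays, but its change of 0.36 did not pass (95% interval -0.07 to 0.80, adjusted p = 0.411).

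The remaining 4 members were all higher at 1 d, and 3 of them at 4 d. *Rtp4*, which regulates interferon responses and receptor transport, changed by 3.34 at 1 d (SE 0.18, adjusted p = 1.5e-05) and by 1.49 at 4 d (SE 0.18, adjusted p = 0.00183). *Ifi35* changed by 1.94 (SE 0.14, adjusted p = 4.97e-05) and 1.06 (SE 0.14, adjusted p = 0.00244). *Xaf1*, which promotes apoptosis, changed by 2.16 at 1 d (SE 0.20, adjusted p = 0.00028), while its 0.56 at 4 d did not pass (adjusted p = 0.205). *Ifi27* had log2 values of 7.51, 7.31 and 7.18 after PBS, of 8.22, 8.25 and 8.29 at 1 d and of 8.14, 8.01 and 8.15 at 4 d. Both LPS groups of *Ifi27* were above PBS and the 4 d arrays lay just below the 1 d arrays, with changes of 0.92 at 1 d (SE 0.10, adjusted p = 0.000598) and 0.76 at 4 d (SE 0.10, adjusted p = 0.00219). The probe set of *Ifi27* is of a type that can match several transcripts, and its second probe set passed at both times with changes of 0.87 and 0.77. The second probe sets of *Rtp4*, *Xaf1* and *Parp14* were at background over the arrays and did not pass at 1 d.

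The direct comparison of LPS 4 d with LPS 1 d asked which members differed between the early and the later time. Of the 35 members, 20 were lower at 4 d (57.1%) and 0 were higher, while 1.37% of all genes were lower and 1.84% were higher. The median log2 change was -1.05, beside 0.00 over all genes, and -1.03 over 34 members with 6 bounds in place. All 4 d arrays lay below the 1 d arrays for 28 members and for 9.76% of all genes. The largest fitted falls among members above background at 4 d were those of *Ifit1* (-2.66, SE 0.15, adjusted p = 0.000146), *Rsad2* (-2.66, SE 0.205, adjusted p = 0.000371), *Usp18* (-2.49, SE 0.23, adjusted p = 0.000749) and *Oasl2* (-2.30, SE 0.27, adjusted p = 0.00249). By role, 3 of 3 IFIT genes and 3 of 3 IFITM genes were lower at 4 d, 2 of 4 OAS genes, 2 of 3 ISG15 conjugation genes and 1 of 4 ADP-ribosylation genes (*Parp12*, -0.96, SE 0.13, adjusted p = 0.00536). The falls of *Ifi204* (-1.60, SE 0.26), *Isg20* (-1.96, SE 0.34) and *Mx1* (-1.88, SE 0.31) depended on single arrays. Their 4 d means were at background, so these falls are bounds, of at least 2.07-fold, 3.03-fold and 2.96-fold. *Ifi204* lost the call when replicate 3 of LPS 1 d or replicate 1 of LPS 4 d was left out (adjusted p from 0.053 to 0.0617), *Isg20* without replicate 2 or 3 of LPS 1 d or replicate 1 of LPS 4 d (adjusted p from 0.0729 to 0.0778) and *Mx1* without LPS 1 d replicate 2 or 3 (adjusted p from 0.0564 to 0.0658).

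Higher at both times, without a call between them, were *Uba7*, *Parp14*, *Parp9*, *Dtx3l*, *Ifi205*, *Samhd1* and *Ifi27*. Among these the change from 1 d to 4 d was 0.10 for *Uba7* (95% interval -0.25 to 0.45), -0.08 for *Samhd1* (95% interval -0.36 to 0.21) and -0.16 for *Ifi27* (95% interval -0.37 to 0.06), so that a fall larger than the lower limits is outside these intervals. For *Parp14* it was -0.89 (95% interval -1.38 to -0.40, adjusted p = 0.0839), for *Ifi205* -0.82 (adjusted p = 0.116), for *Parp9* -0.77 (adjusted p = 0.181) and for *Dtx3l* -0.58 (adjusted p = 0.0963). The latter 4 genes had all 4 d arrays below all 1 d arrays, so the missing call does not show an equal level at both times. Each of them passed when 1 array was left out, namely LPS 1 d replicate 1 for *Dtx3l* (-0.75, adjusted p = 0.0142) and *Ifi205* (-1.03, adjusted p = 0.0434), PBS replicate 1 or 2 for *Parp14* (adjusted p from 0.0325 to 0.0394) and PBS replicate 2 for *Parp9* (adjusted p = 0.04).

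**Figure D3:**
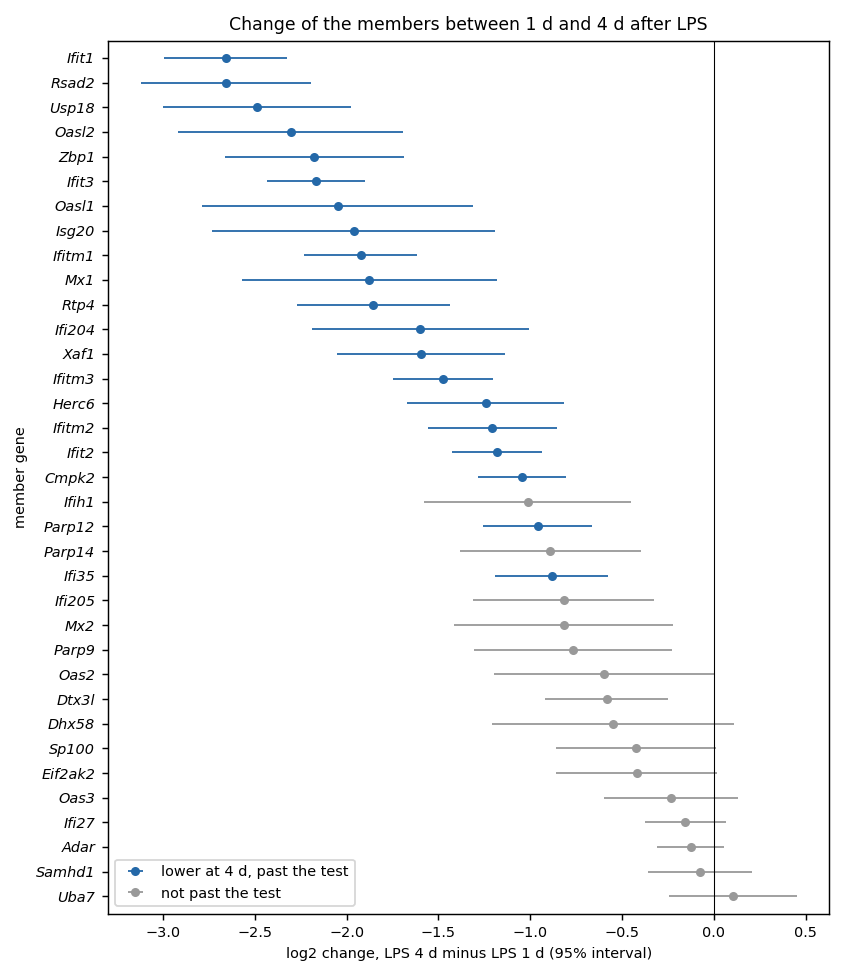
Log2 change from LPS 1 d to LPS 4 d (x axis) for the 35 members (rows, ordered by the change), with points for the fitted change and bars for its 95% interval. The 20 members past the test, in blue, run from -2.66 for *Ifit1* to -0.88 for *Ifi35*, and *Uba7* at 0.10 is the only member above 0.

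Members that lie next to each other on a chromosome, with at most 4 protein-coding genes between them in the RefSeq gene order, gave 10 pairs, and the difference in their log2 change at 1 d was compared pair by pair. In 3 of the pairs (*Oas2* with *Oas3*, *Oasl2* with *Oasl1* and *Ifi204* with *Ifi205*) a member was at background after PBS, so no difference is given for them. *Rsad2* and *Cmpk2*, direct neighbours on chromosome 12, differed by 2.78 (SE 0.173), *Rsad2* being higher. Each pair sets different probe sets side by side, and the size of a change varied with the probe set. At 1 d the other probe sets gave 2.96 and 3.70 for *Rsad2* and 0.72 for *Cmpk2*. The part of the probe sets in the differences of any pair was not tested. *Ifit2* changed by 2.02 less than *Ifit3* on chromosome 19 (difference -2.02, SE 0.152). *Parp14* exceeded *Dtx3l* by 1.23 (SE 0.312). In these pairs, and in *Dtx3l* against *Parp9* (-0.88, SE 0.254) and *Ifitm2* against *Ifitm1* (-0.90, SE 0.131), the 3 LPS arrays did not overlap the 3 PBS arrays in the difference, which gives p = 0.1 in a two-sided exact permutation test, the smallest that 3 arrays against 3 allow (0.143 after Benjamini-Hochberg adjustment over the 10 pairs). The differences of *Ifit3* against *Ifit1* (-0.34, p = 0.2) and *Ifitm1* against *Ifitm3* (0.21, p = 0.3) overlapped between the groups in the same exact test.

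The arrays of a group were not alike in the members. The median member lay 1.77, 2.21 and 2.29 above the PBS mean on LPS 1 d replicates 1, 2 and 3, and 0.80, 0.73 and 1.01 above it on LPS 4 d replicates 1, 2 and 3. LPS 1 d replicate 1 was the lowest of its group for 26 of the 35 members, and for 36.6% of the 11753 genes above background. LPS 4 d replicate 2 was the lowest of its group for 23 members, and for 34.8% of those genes. Markers of cell types moved with the groups. The summed linear intensity of 10 neutrophil markers was 108 to 189 after PBS and 300 to 520 at 4 d. On LPS 1 d replicates 1 to 3 it was 1660, 4510 and 2560. At 1 d this sum came mostly from *S100a8* and *S100a9*, at log2 values of 10.83 and 11.08 on replicate 2, where *Il1r2* was next at 7.75. Against PBS, 7 of the 10 passed as higher at 1 d and 1 at 4 d. *Ngp*, *Camp* and *Ltf* did not pass at 1 d (log2 changes 0.19, 0.07 and -0.08). Between the LPS times, falls in 4 markers passed, whereas that of *Csf3r* (-0.28) did not. LPS 1 d replicate 2, with the highest neutrophil sum, was the highest of its group for 22 of the 35 members and for 29.5% of the genes above background. The median member, however, was highest on LPS 1 d replicate 3 (2.29, neutrophil sum 2560). At 4 d, replicate 1 had the highest neutrophil sum (520) and was highest for 11 members and 32.3% of those genes. LPS 4 d replicate 3, with a sum of 323, was highest for 18 members and 34.2% of those genes. For 8 monocyte and recruited macrophage markers the sum was 292 to 340 after PBS, 1300 to 1360 at 1 d and 1990 to 2800 at 4 d, with 6 of 8 higher at each time. Between 1 d and 4 d, 2 of these 8 were higher (*Ms4a7*, 4.36, and *Lyz2*, 1.47) and 2 were lower (*Chil3*, -3.09, and *Plac8*, -2.37). Microglia markers summed to 774 to 807 after PBS, 478 to 725 at 1 d and 1630 to 1860 at 4 d, and 3 of 8 were lower at 1 d and 4 of 8 higher at 4 d. The part of any of these cells in the members' changes was not tested. Of 10 T and NK cell markers, 8 were at background in every group, *Cd3e*, *Cd3d*, *Cd3g* and *Cd8a* among them, and 2 passed at 4 d (*Gzma* and *Nkg7*, both at background). Of 3 B cell markers, *Cd79a* and *Ms4a1* were at background in every group and *Cd79b* was higher at 4 d. Neuron markers (0 of 6) and striatal neuron markers (0 of 5) did not pass limma's test in any of the 3 comparisons (at an unadjusted p under 0.05, only *Drd2*, lower at 1 d than after PBS and than at 4 d), and their sums lay between 10300 and 11400 and between 1800 and 2790. Endothelial markers were higher in 1 of 6 at 1 d and 2 of 6 at 4 d, astrocyte markers in 2 of 8 at each time, oligodendrocyte markers were lower in 2 of 7 at 1 d and 0 at 4 d, and 0 of 5 choroid plexus markers passed limma's test, although 4 of the 5 were lower at 4 d than after PBS at an unadjusted p under 0.05.

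**Figure D4:**
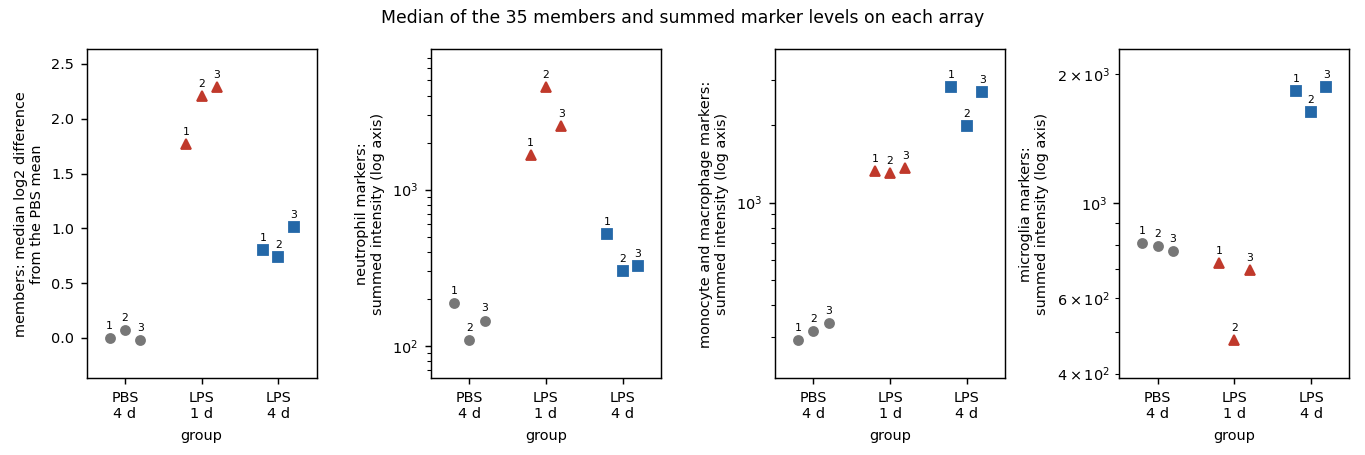
Median log2 difference of the 35 members from the PBS mean (left) and summed linear intensity of neutrophil, monocyte and macrophage, and microglia markers (log axes) on each of the 9 arrays, with replicate numbers above the symbols and the group on the x axis. The members' medians are 1.77 to 2.29 at 1 d and 0.73 to 1.01 at 4 d, the neutrophil sums are highest at 1 d, and the microglia and the summed macrophage levels are highest at 4 d, although 2 of the 8 macrophage markers were lower at 4 d than at 1 d.

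The genes of the interferon pathway outside the members were described from 4 lists, of which 42 of 50 genes were measured, with 17 higher at 1 d, 15 higher at 4 d and 0 lower at either time. All 6 interferon genes measured (*Ifna1*, *Ifna2*, *Ifna4*, *Ifna5*, *Ifnb1* and *Ifng*) were at background in every group, with no value above 2.77 on any array. *Ifnb1* had log2 values of 2.02, 2.02 and 1.86 after PBS and of 2.31, 2.25 and 2.63 at 1 d, all below the background level of 3.49, so no fold is given. Of the receptor chains, *Ifnar2* was higher at both times, by 0.63 (SE 0.09, adjusted p = 0.0052) and 0.73 (SE 0.09, adjusted p = 0.0025). *Il10rb*, a chain of the interferon lambda receptor, was higher by 0.85 and 1.36, and *Ifngr1* by 0.69 at 4 d (SE 0.12, adjusted p = 0.0114). *Ifnlr1*, another gene of the interferon lambda receptor, was at background in every group.

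Among JAK, STAT and IRF genes, 4 of 11 were higher at 1 d and 4 of 11 at 4 d. *Irf7*, which amplifies interferon production, was at 3.23, 2.89 and 3.30 after PBS, at 5.58, 6.72 and 6.53 at 1 d and at 4.52, 3.86 and 4.53 at 4 d. Its groups were separate, with a rise of at least 6.9-fold at 1 d (log2 change 3.14, SE 0.30, adjusted p = 0.000298) and a change of 1.16 at 4 d that did not pass (SE 0.30, adjusted p = 0.0745). *Irf9* and *Stat2*, which encode partners in the factor that binds ISRE, were higher at 1 d by 1.96 (SE 0.13, adjusted p = 4.24e-05) and 1.41 (SE 0.10, adjusted p = 5.97e-05). *Irf1* was higher by 1.63 at 1 d and 0.96 at 4 d. From 1 d to 4 d, *Irf7* (-1.98), *Irf9* (-1.10), *Stat2* (-0.97) and *Irf1* (-0.67) were lower. *Irf8*, which directs myeloid cell development, was instead higher at 4 d than at 1 d, by 1.12 (SE 0.17, adjusted p = 0.00993), and it was 1.82 above PBS at 4 d (SE 0.17, adjusted p = 0.000389). *Irf5* was higher at 4 d, by 0.99 (adjusted p = 0.0336), while its change of 0.44 at 1 d did not pass (adjusted p = 0.351).

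Upstream sensing genes were higher in 8 of 13 at 1 d and 6 of 13 at 4 d. *Ikbke*, the kinase IKK epsilon, changed by 2.65 and 2.27, *Ddx58*, the RNA sensor RIG-I, by 2.02 and 1.00, *Myd88*, the adaptor of most Toll-like receptors, by 1.72 and 0.90, and *Tlr7* by 0.90 and 1.38 at 1 d and 4 d, all past the test. *Tlr3* (0.98) and *Sting1* (0.83) also passed at 1 d, and *Sting1* (1.30) at 4 d. *Ddx58* (-1.02) and *Myd88* (-0.81) were lower at 4 d than at 1 d. Of 6 inhibitors of interferon signalling, 3 were higher at 1 d and 2 at 4 d. *Socs3*, a suppressor of cytokine signalling, changed by 3.91 at 1 d (SE 0.19, adjusted p = 8.03e-06) and 2.04 at 4 d (SE 0.19, adjusted p = 0.000325), and fell by 1.87 between the times (SE 0.19, adjusted p = 0.00116). *Ptpn6*, a phosphatase of blood-derived and microglial cells, changed by 2.66 and 3.19, and *Ptpn2* by 0.71 at 1 d. *Socs1* was at background in every group.

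**Figure D5:**
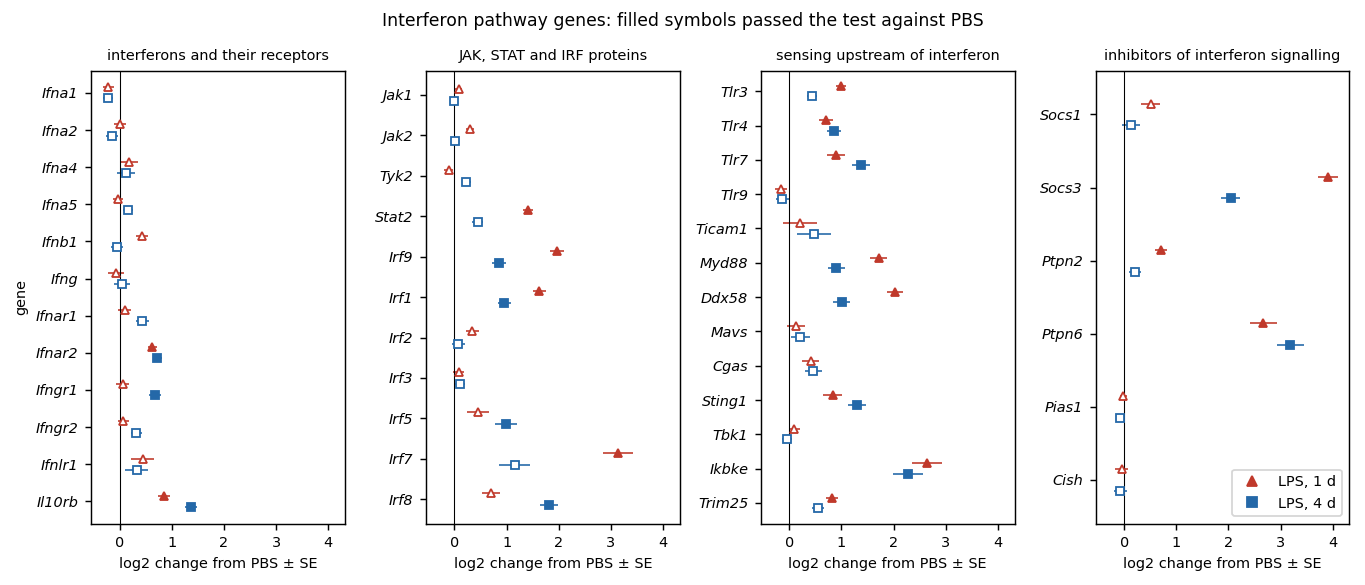
Log2 change from PBS (x axis, with bars for the SE) of the measured genes of the 4 interferon pathway lists, at 1 d (red triangles) and 4 d (blue squares) after LPS, with filled symbols for changes past the test. *Socs3* (3.91) and *Irf7* (3.14) have the largest fitted changes at 1 d and *Ptpn6* (3.19) at 4 d, and all 6 interferon genes have open symbols.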

How the data were processed

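RNA of 9 pools of 3 mice each was hybridised to Affymetrix HT MG-430 PM arrays, 3 per group. The deposited values are log2 expression values, which the authors made with RMA in Affymetrix Expression Console (release not stated in the paper or labels). RMA includes quantile normalization, and the array medians lay between 4.32 and 4.37. The array count limits precision, and p values set group differences against the spread between pools, not between single mice.

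All 45037 probe sets, without 104 control entries, were fitted with limma 3.58.1 in R 4.3.3 over the 3 groups (moderated contrasts and F-test, 6 residual degrees of freedom), with Benjamini-Hochberg adjustment over the whole table. A probe set was called at an adjusted p under 0.05 where it also changed by 1.5-fold or more, and the fit was tested on simulated data. Of the probe sets, 28898 carried 1 gene symbol, 551 several and 15588 none, and 28689 matched the RefSeq genes by Entrez number. Each gene took the probe set annotated to it alone with the highest mean, and 13 members had several. A group was at background where its mean was at most 3.49, and a fold against such a group is a bound. Per-array values are printed for the 5 largest changes of each contrast, members past no test, up to 5 members past both times but not between them, and the Ifit, Oas, Ifitm and Parp families. The members, gene lists and these rules were chosen with earlier results of these data known. Alternatives were other limma settings, ordinary tests without moderation, other probe sets and filters, a replicate block and leaving out each array. Joins, permutation tests and plots used Python 3.11.15, numpy 2.4.6, pandas 2.3.3, scipy 1.17.1 and matplotlib 3.10.9.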

Additional observations from a re-analysis of the deposited data

Results flagged for a closer look

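The change after LPS differed between 1 d and 4 d, by the test of LPS 4 d against LPS 1 d itself, in 20 members, all of them lower at 4 d. On the log2 scale the difference was -2.66 for *Ifit1*, -2.66 for *Rsad2*, -2.49 for *Usp18*, -2.30 for *Oasl2*, -2.18 for *Zbp1*, -2.17 for *Ifit3* and -2.05 for *Oasl1*. It was -1.96 for *Isg20*, -1.92 for *Ifitm1*, -1.88 for *Mx1*, -1.85 for *Rtp4*, -1.60 for *Ifi204*, -1.59 for *Xaf1* and -1.47 for *Ifitm3*. The smaller differences were -1.24 for *Herc6*, -1.21 for *Ifitm2*, -1.18 for *Ifit2*, -1.05 for *Cmpk2*, -0.96 for *Parp12* and -0.88 for *Ifi35*. *Zbp1*, *Oasl1*, *Isg20*, *Mx1*, *Ifi204* and *Herc6* were at background at 4 d, so their falls are bounds. These are at least 2.69, 2.96, 3.03, 2.96, 2.07 and 1.89-fold, in that order. Both times share the PBS arrays collected at 4 d, and a PBS group at 1 d was not analysed here.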

How the results depend on the processing

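With another probe set per gene, the one with the lowest mean, the median member change at 1 d was 1.5 in place of 2.14, and the change turned in sign for *Dhx58* at 1 d (-0.0393), *Uba7* at 4 d (-0.065) and *Rtp4* at 4 d (-0.0719), none of them past the test. The counts of members higher at 1 d, higher at 4 d and lower at 4 d than at 1 d stayed within 1.5 times the reported counts under every alternative run. The lowest were 26 with the probe set of the lowest mean, and 13 and 14 with ordinary tests without moderation. The counts of members changed in the opposite direction stayed at 0 under every alternative run, and were also 0 in limma at an unadjusted p under 0.05. Leaving out each array in turn gave 28 to 30 members higher at 1 d, 15 to 19 higher at 4 d, 17 to 23 lower at 4 d than at 1 d and 28 to 29 differing over the 3 groups. The medians then ran from 1.99 to 2.32, from 0.71 to 0.90 and from -1.18 to -0.97. Replicates that share a number did not deviate together (correlations from -0.0346 to 0.0216), nor did those with different numbers (from -0.0339 to 0.0445). No pairing by number was seen, but whether same-numbered arrays were processed together cannot be told from these correlations. With the replicate block the counts were 30, 18 and 19, and the calls of *Eif2ak2* at 1 d, *Dtx3l* at 4 d, and *Isg20* and *Mx1* between the times were lost, while *Ifih1* was gained at 4 d and between the times. Changes of members at background are limited by the signal over background and are bounds.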
